A study of Mus musculus with 6 samples.

Results

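The genes described are 9 markers of satellite glia and of glia in general, measured in dorsal root ganglia of mice at postnatal day 4. They are Fabp7, S100b, Cdh19, Ednrb, Glul, Kcnj10, Gja1, Apoe and Ptprz1. They were chosen by name, and every non-control probe whose transcript accession belongs to one of them was taken. This gave 12 of the 41174 non-control probes of the array, of which 11 were bright enough to be tested, and each of the 9 genes had at least 1 tested probe. The compared groups were 3 dt27J animals, which carry a mutant allele of Dst, the gene of the cytoskeletal linker dystonin, and 3 wild-type (WT) littermate controls, all of the C57BL/6 background, with 1 single-colour array per animal. The labels do not state the zygosity of the allele, and the series presents this age as preceding the phenotype. They carry 2 dates, which coincide with 2 slides: dt27J 1, dt27J 2, WT 1 and WT 2 belong to the first date, and dt27J 3 and WT 3 to the second. The design speaks of 2 litters, and no label ties a date to a litter.

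Satellite glia wrap the cell bodies of sensory neurons, which they supply with glutamine and lipid and whose extracellular potassium they buffer. They arise, like Schwann cells, from the neural crest. Many genes that mark them in a ganglion are also expressed by astrocytes and radial glia of the spinal cord, so a piece of cord in a dissected ganglion carries the same transcripts. Whole ganglia were measured, so fewer cells of a type and less RNA per cell cannot be told apart.

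Levels are log2 of the scanner's processed signal minus the 75th percentile of that array, which lay at a signal between 369.5 and 580, so a level of 1 is a signal at double the percentile. Levels of different probes depend on the probe as well as on the transcript and were not set against each other. Differences are dt27J minus WT on this log2 scale, tested with limma with the label date as a block, and adjusted p is by Benjamini-Hochberg across the 26248 tested probes, called under 0.05. Each array had between 63.1% and 71.4% of probes well above background. As the check of the labels, Dst was lower in dt27J on each of its 3 probes, by 2.42 to 2.68 on the log2 scale, but the labels do not place the allele within the gene, so these probes check the labels only in part.

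The arrays also differed in the levels of genes that mark tissue other than the ganglion. Whether such tissue was carried over in dissection was not tested. Of 16 markers of spinal cord astrocytes, oligodendrocyte lineage and interneurons, 9, 8 and 12 were well above background on dt27J 1, 2 and 3, against 15, 15 and 11 on WT 1, 2 and 3. The summed level of the 11 that were tested lay between 2.97 and 5.39 times the array's percentile on the dt27J arrays, and at 38.5, 32.8 and 5.11 on WT 1, 2 and 3. WT 1 and WT 2 thus stood far above the other 4 arrays. The sum weighs the brightest genes most. On dt27J 3 and WT 3 the brightest of the 11 had log2 levels of 0.61 and 1.46, so small gaps in the sum rest on few genes. Aqp4, the water channel of astrocytes, had levels of -4.36, -4.59 and -2.63 in dt27J ganglia and 1.02, 1.15 and -2.54 in WT ganglia. Skeletal muscle genes ran the other way, with a summed level over 13 genes of 104.9 to 231.4 in dt27J, against 28.3, 28.2 and 113.8 on WT 1, 2 and 3, and 4 of the 13 passed, all higher. Within the first date the median dt27J minus WT difference was -4.15 over the cord genes and 2.55 over the muscle genes, and within the second date it was -0.11 and 0.59. Single cord genes still ranged from -1.66 (Gpr17) to 2.03 (Olig1) within the second date. The dates differed in these genes mainly in WT. WT 3 minus the first-date WT mean had a median of -3.48 over the cord genes and 2.32 over the muscle genes. For dt27J 3 against the first-date dt27J mean these medians were 0.38 and 0.10. The difference of each tested marker probe is therefore also given within each date. The second date compares 1 array with 1 array.

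**Figure D1:**
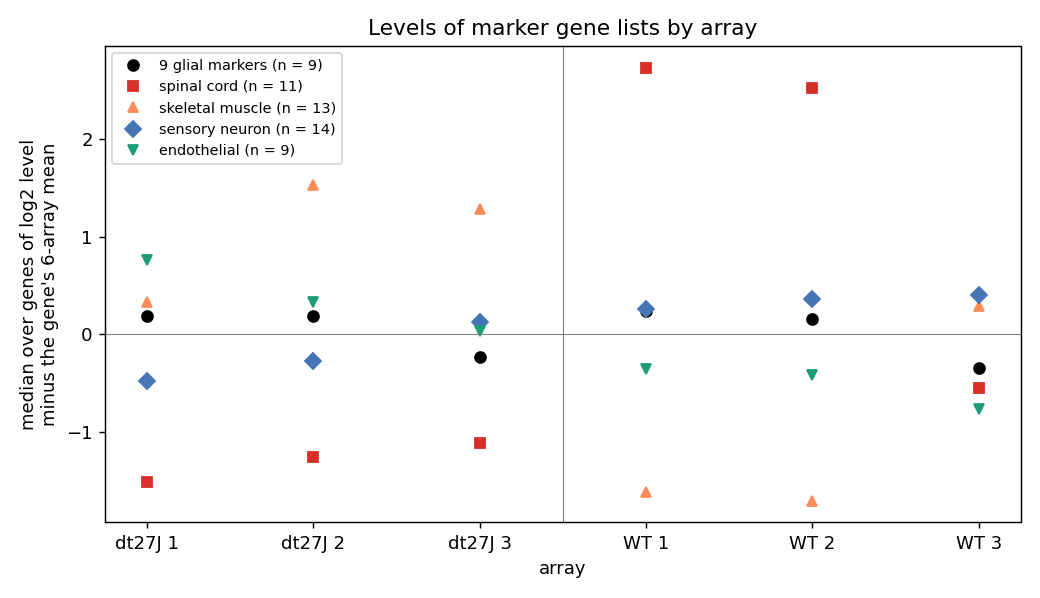
Median over the genes of each list of the log2 level minus the gene's mean over the 6 arrays (vertical axis), for each array (horizontal axis, dt27J left of WT). The spinal cord genes stand at 2.72 and 2.52 on WT 1 and WT 2 and between -1.51 and -0.55 on the other arrays, while the 9 glial markers lie between -0.34 and 0.24 on every array.

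The 9 glial markers differed in direction in dt27J ganglia. Ednrb, the endothelin B receptor, rose on the brighter of its 2 probes, while the other stood at 0.32 without passing. Cdh19, a cadherin of the Schwann and satellite cell lineage, rose on a dim probe that met the filter through the dt27J arrays alone. Both calls were lost when any 1 first-date array was left out. Fabp7, the brain fatty acid binding protein of immature and satellite glia, stood at -0.96 without passing the threshold. Of the 9 genes, 2 passed with at least 1 probe, both higher and 0 lower, beside 564 of 13675 named genes (4.12%) in either direction and 263 (1.92%) higher. Of all tested probes 3.19% passed, 1.31% higher and 1.88% lower, beside 2 of the 11 marker probes, both higher. Among probes well above background on all 6 arrays, Cdh19 was not tested. There 1 of 10 marker probes passed, the brighter Ednrb probe (1 of 8 marker genes), beside 806 of 24240 probes. The split over all probes, 344 higher and 494 lower, depended on the scaling and was 503 higher and 430 lower with quantile-normalized values, where the same 2 marker genes passed. By an unadjusted p under 0.05, 5 of the 11 tested probes differed, beside 27.7% of all tested probes. By the brightest tested probe of each gene, 4 differences were positive and 5 negative with a median of -0.01, against a median of -0.03 and 47.6% positive over all 13675 named genes. Counted by that brightest probe, 2 of 9 passed higher and 0 lower, beside 1.35% and 1.52% of named genes. The dt27J and WT arrays did not overlap on 5 of 11 tested probes, 3 higher and 2 lower, beside 28.8% of all tested probes, 12.8% higher and 16% lower. Whether the genotype difference itself differed between dates was tested by an interaction, which 0 of the 11 passed (3 at an unadjusted p under 0.05), beside 0.831% of all tested probes (27.5% unadjusted). The differences within the first and second dates had opposite signs on 3 of the 11, beside 43.2% of all tested probes.

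Of those 5 probes, 4 belong to genes with an entry in the RefSeq promoter table of build GRCm38.p6, and they are shown because their arrays separate by genotype in opposite directions. Each window, printed along the gene's strand, runs from 250 bases before the annotated start of the gene to 30 after it. Capitals mark ACAAAG or ACAATG on either strand, which are core motifs bound by SOX proteins, the family of the glial lineage factor Sox10.
Ednrb, chr14:103843672-103843951, minus strand: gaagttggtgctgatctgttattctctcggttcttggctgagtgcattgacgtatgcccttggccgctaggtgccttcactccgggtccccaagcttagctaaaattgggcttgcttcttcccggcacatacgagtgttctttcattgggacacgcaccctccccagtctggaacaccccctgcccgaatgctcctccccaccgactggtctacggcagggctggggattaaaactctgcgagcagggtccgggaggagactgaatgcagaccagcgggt
Kcnj10, chr1:172340960-172341239, plus strand: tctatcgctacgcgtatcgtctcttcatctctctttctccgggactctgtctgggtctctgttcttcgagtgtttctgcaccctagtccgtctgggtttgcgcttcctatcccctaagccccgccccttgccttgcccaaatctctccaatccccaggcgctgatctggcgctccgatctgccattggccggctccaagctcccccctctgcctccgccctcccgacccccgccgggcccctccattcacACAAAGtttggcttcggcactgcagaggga
Fabp7, chr10:57784673-57784952, plus strand: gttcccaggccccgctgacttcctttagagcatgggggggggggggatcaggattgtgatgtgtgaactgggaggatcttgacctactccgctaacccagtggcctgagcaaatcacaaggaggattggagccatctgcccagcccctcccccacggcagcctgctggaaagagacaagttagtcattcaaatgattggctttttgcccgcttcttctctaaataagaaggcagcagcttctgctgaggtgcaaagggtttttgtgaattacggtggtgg
Ptprz1, chr6:22875252-22875531, plus strand: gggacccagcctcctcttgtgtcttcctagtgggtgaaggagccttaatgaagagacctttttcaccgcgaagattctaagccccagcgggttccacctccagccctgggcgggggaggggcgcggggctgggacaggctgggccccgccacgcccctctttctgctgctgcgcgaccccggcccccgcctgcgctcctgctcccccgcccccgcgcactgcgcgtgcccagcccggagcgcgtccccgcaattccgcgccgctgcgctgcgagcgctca
Kcnj10 holds 1 match, at the first transcribed base, and the Ednrb, Fabp7 and Ptprz1 windows hold none. Over the 8 glial markers with an entry, 2 of 10 windows held a match (1 of the 3 of Apoe being the other), and over all 32851 windows of this length 27.4% did. A match describes the letters only, and no match says nothing of binding. No window for Cdh19 was used here.

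**Figure D2:**
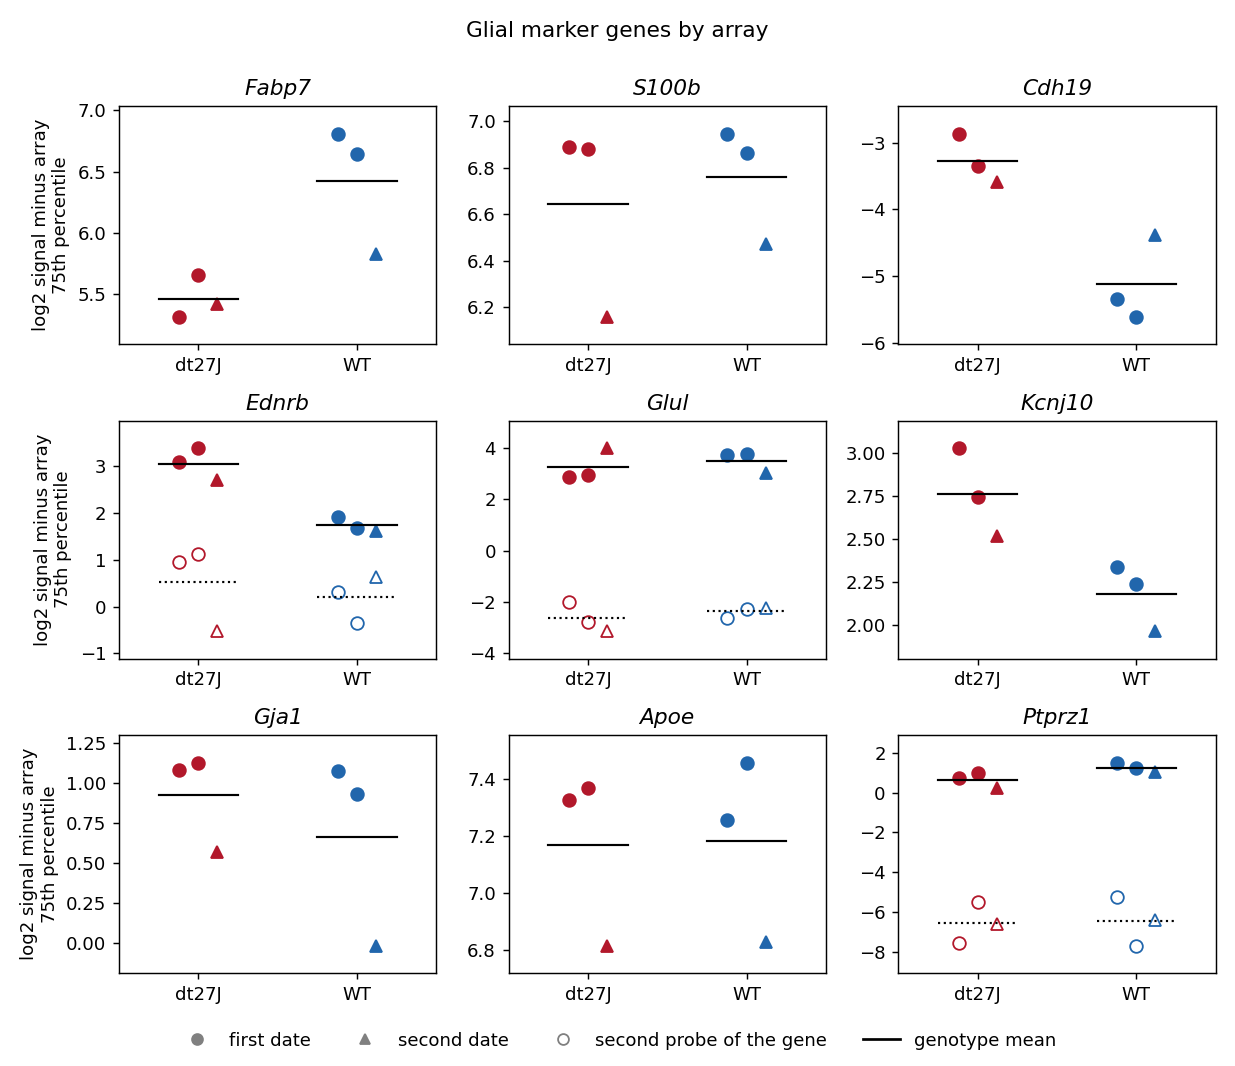
Level of each glial marker on each array (log2 signal minus the array's 75th percentile, vertical axes that differ between genes), with dt27J left of WT, circles for the first date, triangles for the second, open symbols for a second probe and lines for genotype means. The dt27J arrays lie above every WT array for Ednrb (filled symbols), Cdh19 and Kcnj10, and below every WT array for Fabp7 and for the brighter Ptprz1 probe (filled symbols).

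Among the receptors, Ednrb binds endothelins and is needed in the neural crest for the lineages of pigment cells and enteric neurons. Its brighter probe had levels of 3.09, 3.39 and 2.70 in dt27J ganglia and 1.92, 1.69 and 1.62 in WT ganglia. The lowest dt27J array lay above the highest WT array. The means were 3.06 ± 0.34 in dt27J and 1.74 ± 0.16 in WT (SD, n = 3 each). The rise was 1.32 (SE 0.21), or 2.49-fold with a 95% interval of 1.77 to 3.52 (adjusted p = 0.0442, limma). It was 1.43 within the first date and 1.09 within the second. A difference between the dates was not detected (adjusted p = 0.564 for the interaction). On the second-date arrays the summed level of the cord markers was 2.97 on dt27J 3 and 5.11 on WT 3. That sum follows its brightest genes, and single cord genes went both ways within the second date. The part of cord tissue in the Ednrb result was not tested. Without WT 1 and WT 2, the arrays with the highest cord marker levels, and without a date block, Ednrb stood at 1.44. There the first-date dt27J 1 and dt27J 2 were also set against the second-date WT 3, so only the size is given. This fit was added once the values were known, and WT 3, its lone WT array, is assumed to vary like the others. The call was lost without dt27J 1 (adjusted p = 0.181, limma), dt27J 2 (0.0933), WT 1 (0.246) or WT 2 (0.162). It was also lost without the date block (0.0610), with replicate number as the block (0.1105) and without the filter on dim probes (0.0933). The difference lay between 1.199 and 1.372 in these fits.

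A second Ednrb probe, to the same transcript accession, had levels of 0.95, 1.13 and -0.53 in dt27J ganglia and 0.31, -0.36 and 0.64 in WT ganglia. The groups overlapped, with dt27J 3 the lowest array of all. The difference was 0.32 (SE 0.47, 95% interval -0.80 to 1.44, adjusted p = 0.684, limma). It was 1.06 within the first date and -1.16 within the second (adjusted p = 0.0695 for the interaction). The first-date difference passed (adjusted p = 0.0378, limma, n = 2 per genotype), beside 6805 of the 26248 tested probes within that date. The cord markers also separate the genotypes on those arrays. The 2 Ednrb probes thus went the same way within the first date and opposite ways within the second. The position of each probe on the transcript was not analysed here. Some endothelium also expresses Ednrb, and beside it the endothelial genes had a positive difference in 9 of 9, with a median of 0.77 (0.80 and 0.61 within the first and second dates). Of these only the angiopoietin receptor gene Tek passed (1.63, SE 0.29, adjusted p = 0.0472, limma), and the summed level of the 9 genes was 19.7 to 35.8 in dt27J and 13.7 to 19.5 in WT, with all 9 well above background on every array. The part of these cells in the Ednrb result was not tested.

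Ptprz1, a receptor-type tyrosine phosphatase that binds pleiotrophin and contactin, stood lower. Its brighter probe had levels of 0.73, 0.97 and 0.21 in dt27J ganglia, against 1.498, 1.21 and 1.03 in WT ganglia. The highest dt27J array lay just under the lowest WT array. The difference was -0.61 (SE 0.21, 95% interval -1.105 to -0.12) and did not pass (adjusted p = 0.1197, limma). It was -0.51 within the first date and -0.82 within the second. The second Ptprz1 probe was well above background on 0 of 3 dt27J and 1 of 3 WT arrays and was not tested.

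Of the adhesion genes, Cdh19 had levels of -2.87, -3.34 and -3.59 in dt27J ganglia and -5.35, -5.61 and -4.38 in WT ganglia. The groups did not overlap, and WT 3 lay nearest to dt27J. The probe was well above background on 3 of 3 dt27J arrays but on WT 3 alone among the WT arrays, so it was tested only because it was bright enough in dt27J, and the size of the difference rests on 2 WT signals that were not well above background. The fitted rise was 1.85 (SE 0.36), or 3.59-fold with a 95% interval of 1.98 to 6.52 (adjusted p = 0.0497, limma). The processed signals were 73, 36.4 and 48 in dt27J and 11.9, 10 and 24.4 in WT. The size depended on how the background was handled: it stood at 0.45 after normexp background correction (adjusted p = 0.224), at 0.55 with high local backgrounds replaced before it (0.103) and at 0.98 in the authors' deposited table (0.0484). The difference was 2.37 within the first date and 0.79 within the second (adjusted p = 0.0910 for the interaction). With WT 3 as the sole WT array, Cdh19 stood at 1.11 (adjusted p = 0.573). The call was lost without dt27J 1 (adjusted p = 0.191, limma), dt27J 2 (0.116), WT 1 (0.246) or WT 2 (0.168). It was also lost without the date block (0.0626), with replicate number as the block (0.1105) and without the filter on dim probes (0.109). Cdh19 was not tested among probes well above background on all 6 arrays.

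Gja1 encodes connexin 43, which forms the gap junctions that couple satellite glia to each other. Its levels were 1.08, 1.12 and 0.57 in dt27J ganglia and 1.07, 0.93 and -0.02 in WT ganglia. The groups overlapped, and the second-date array was the lowest in each genotype. The difference was 0.26 (SE 0.20, 95% interval -0.22 to 0.74, adjusted p = 0.435), with 0.10 within the first date and 0.58 within the second.

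Kcnj10, the inward rectifier channel Kir4.1 through which satellite glia take up potassium, had levels of 3.03, 2.75 and 2.52 in dt27J ganglia, against 2.34, 2.24 and 1.97 in WT ganglia. Every dt27J array lay above every WT array. The difference of 0.58 (SE 0.19), or 1.497-fold with a 95% interval of 1.09 to 2.05, did not pass (adjusted p = 0.114, limma). It was 0.60 within the first date and 0.55 within the second, the smallest gap between dates among the probes whose groups did not overlap.

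Of the metabolic markers, Fabp7 had levels of 5.32, 5.65 and 5.42 in dt27J ganglia, against 6.81, 6.64 and 5.83 in WT ganglia. The dt27J arrays lay close together and below every WT array, and WT 3 was the nearest to them. The difference was -0.96 (SE 0.25, 95% interval -1.56 to -0.37, adjusted p = 0.0720, limma). WT 3 stood at -0.90 relative to the mean of WT 1 and WT 2, and dt27J 3 at -0.07 relative to the mean of dt27J 1 and dt27J 2. Within the first date, where the cord markers separate the genotypes, the difference was -1.24 and passed on its own (adjusted p = 0.0156, limma, n = 2 per genotype). Of the 26248 tested probes, 6805 passed within that date. Within the second date the Fabp7 difference was -0.41, and with WT 3 as the sole WT array it was -0.36. Leaving out dt27J 3 or WT 3 leaves the date block to absorb the other second-date array, so those fits repeat the first-date difference (adjusted p = 0.0158 and 0.0157). Over all 6 arrays it passed after normexp with high local backgrounds replaced (0.0411).

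Glul, glutamine synthetase, turns the glutamate that glia take up into glutamine. Its brighter probe had levels of 2.87, 2.95 and 4.00 in dt27J ganglia and 3.72, 3.79 and 3.01 in WT ganglia. The groups overlapped because the order of the genotypes turned between the dates. The difference was -0.23 (SE 0.38, 95% interval -1.13 to 0.67, adjusted p = 0.719) over all arrays. It was -0.84 within the first date and 0.99 within the second (adjusted p = 0.0555 for the interaction). The first-date difference passed (adjusted p = 0.0248, limma, n = 2 per genotype), beside 6805 of the 26248 tested probes within that date. The cord markers also separate the genotypes on those arrays. The fits without dt27J 3 or without WT 3 repeat the first-date value (0.0251 and 0.0250). The dimmer Glul probe had levels of -1.99, -2.79 and -3.14 in dt27J ganglia and -2.61, -2.26 and -2.22 in WT ganglia, with a difference of -0.27 (SE 0.32, adjusted p = 0.604), which was 0.05 within the first date and -0.91 within the second. The probes of Glul thus had the same sign over all arrays and opposite signs within each date.

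Apoe, the apolipoprotein by which glia export lipid, had levels of 7.32, 7.37 and 6.82 in dt27J ganglia and 7.26, 7.46 and 6.83 in WT ganglia. The difference was -0.01 (SE 0.19), with a 95% interval of -0.45 to 0.43, or 0.730-fold to 1.35-fold (adjusted p = 0.975, limma). The difference was -0.01 within each date. Macrophages also express Apoe. Of 8 measured macrophage genes 7 had a positive difference, with a median of 0.32 (0.31 and 0.07 within the first and second dates) and Aif1 passing (1.01, SE 0.19, adjusted p = 0.0483, limma). Their summed level was 7.57 to 12.0 in dt27J and 6.62 to 7.30 in WT, all 8 were well above background on every array, and their part in the Apoe level was not tested.

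S100b, the calcium-binding protein of mature glia, had levels of 6.89, 6.88 and 6.16 in dt27J ganglia and 6.95, 6.86 and 6.47 in WT ganglia. The groups overlapped, and dt27J 3 was the lowest. The difference was -0.12 (SE 0.19, 95% interval -0.57 to 0.33, adjusted p = 0.713), with -0.02 within the first date and -0.31 within the second.

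**Figure D3:**
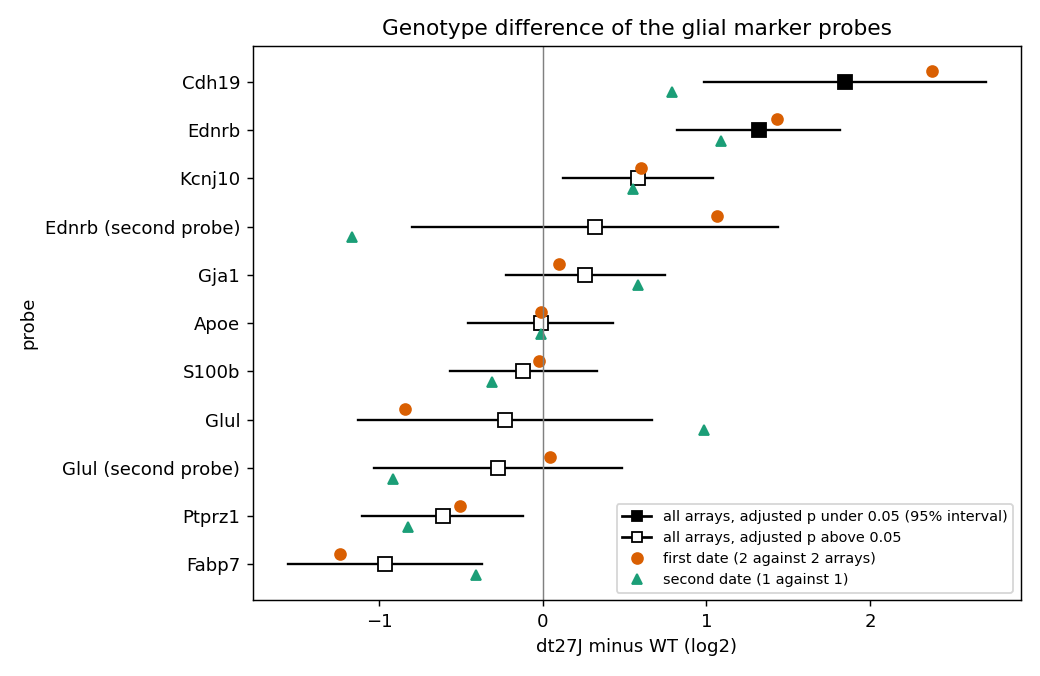
Difference of each tested glial marker probe, dt27J minus WT in log2 (horizontal axis), over all arrays (squares with 95% intervals, filled where adjusted p is under 0.05), within the first date (circles, 2 against 2 arrays) and within the second (triangles, 1 against 1). The brighter Ednrb probe at 1.32 and Cdh19 at 1.85 are the filled squares, and the circles and triangles lie on opposite sides of 0 for the second Ednrb probe and both Glul probes.

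On 7 of 11 tested probes the second-date array lay below the mean of the first-date arrays in both genotypes, beside 27.5% of all tested probes, with Apoe at -0.53 in each genotype and S100b at -0.72 in dt27J and -0.43 in WT. None of the 11 passed for date, against 0.107% of all tested probes, and Gja1 had the largest fitted shift in level among them (-0.77, SE 0.22, second minus first date, adjusted p = 0.246, limma). Over the 6 arrays, which share genotype and date structure, the closest pairs of markers by Pearson's r were S100b with Apoe (0.91), Ednrb with Kcnj10 (0.90) and Ednrb with Cdh19 (0.86), and the most opposed pair was Fabp7 with Cdh19 (-0.95), all given as descriptions. Among the named genes whose 6-array profile was most like Ednrb were H3f3b and Cdkn2b (r = 0.999 and 0.996), and those most like Cdh19 were Sh3gl3, Cdk1 and Fzd2 (r = 0.998, 0.994 and 0.993). With 6 arrays, 256 and 244 of 18251 probes reached an r above 0.95 with Ednrb and Cdh19.

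Of 21 other measured genes of satellite glia and the Schwann lineage, 0 passed by the brightest probe of each gene, against 2.87% of named genes, and 9 had a positive difference (median -0.16). The smallest p values were those of Foxd3, a neural crest factor that persists in satellite glia (1.16, adjusted p = 0.0553), Pou3f1, a factor of promyelinating Schwann cells (1.86, adjusted p = 0.0634, with 2.59 and 0.40 within the first and second dates), and Aldoc, an aldolase of astrocytes and other glia (-1.25, adjusted p = 0.0651, with -1.69 and -0.36). Foxd3 had levels of 0.89, 0.72 and 0.13 in dt27J ganglia and -0.43, -0.80 and -0.51 in WT ganglia, with no overlap. Aldoc had 2.90, 2.93 and 2.76 in dt27J ganglia and 4.55, 4.66 and 3.12 in WT ganglia, so WT 1 and WT 2 stood apart as on the cord genes. Of 11 myelinating Schwann cell genes, 2 passed, both higher: the transcription factor gene Egr2 (2.00, SE 0.31, adjusted p = 0.0442) and Gldn, the gliomedin of the node of Ranvier (1.69, SE 0.24, adjusted p = 0.0413, limma), with a list median of -0.04.

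Calls among genes that work with the markers, here and in the lists that follow, stand beside 2.87% of named genes called by their brightest probe. Of named genes 1.35% were called higher and 1.52% lower. Of 20 potassium, water and gap junction genes, 0 rose and 1 fell, Kcnj12, another inward rectifier (-1.80, SE 0.30, adjusted p = 0.0455, limma). Kcnj16, whose product forms channels with that of Kcnj10, stood at -2.47 (adjusted p = 0.0966), with -3.81 within the first date and 0.19 within the second, as on the cord genes. Of 16 glutamate and glutamine genes 0 passed (median -0.29), and the closest was the glutamine transporter gene Slc38a3 (-1.16, adjusted p = 0.0546), with -1.44 within the first date and -0.58 within the second. The glutamate transporter Slc1a3 had levels of -0.10, -0.07 and 0.06 in dt27J ganglia and 1.81, 1.75 and 0.03 in WT ganglia, so WT 3 lay with dt27J.

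Of 7 endothelin ligands, converting enzymes, receptors and related peptidases, 0 passed (median 0.14). The ligand gene Edn2 stood at -1.32 (adjusted p = 0.0778), Edn1 at 0.70 (adjusted p = 0.177) and the other receptor, Ednra, at 0.55 (adjusted p = 0.262), with 0.95 within the first date and -0.26 within the second. Of 18 lipid transport genes 1 fell (median -0.15), Lcat, the cholesterol esterifying enzyme that Apoe activates, which was well above background on no dt27J array and on all 3 WT arrays. Its level was lower in dt27J by at least 2.67-fold (adjusted p = 0.0376, limma), from the WT mean against the lowest signal well above background on the dt27J arrays. Of 15 fatty acid binding, retinoid binding and S100 relatives 0 passed (median 0.27). Of 15 other cadherins 1 fell, Cdh18 (-1.65, SE 0.29, adjusted p = 0.0472, limma), a dim probe well above background on 1 of 3 dt27J arrays and on all 3 WT arrays. Its groups overlapped, with levels of -5.53, -5.61 and -3.20 in dt27J and -3.60, -3.42 and -2.36 in WT. Of the 15, 3 had a positive difference (median -0.34). Of 11 ligands, partners and relatives of Ptprz1, 0 passed (median -0.58), and the contactin gene Cntn1 was the closest (-1.02, adjusted p = 0.0514), at -0.90 and -1.27 within the first and second dates.

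Neuronal and connective tissue genes were set beside the glial markers. Of 14 sensory neuron genes 13 had a negative difference (median -0.58), and 2 fell, among them the transcription factor gene Tlx3 (-2.40, SE 0.46, adjusted p = 0.0491, limma, with -3.13 and -0.94 within the first and second dates). Their summed level was 651 to 819 in dt27J and 878 to 989 in WT, all 14 well above background on every array. Of 11 fibroblast and meningeal genes, cells that also express Gja1, 0 passed (median 0.67). Their summed level was 522 to 1036 in dt27J and 382 to 696 in WT, all 11 well above background on every array, and their median was 1.09 within the first date, where Gja1 stood at 0.10, and -0.25 within the second, where Gja1 stood at 0.58. The part of these tissues in the glial results was not tested.

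**Figure D4:**
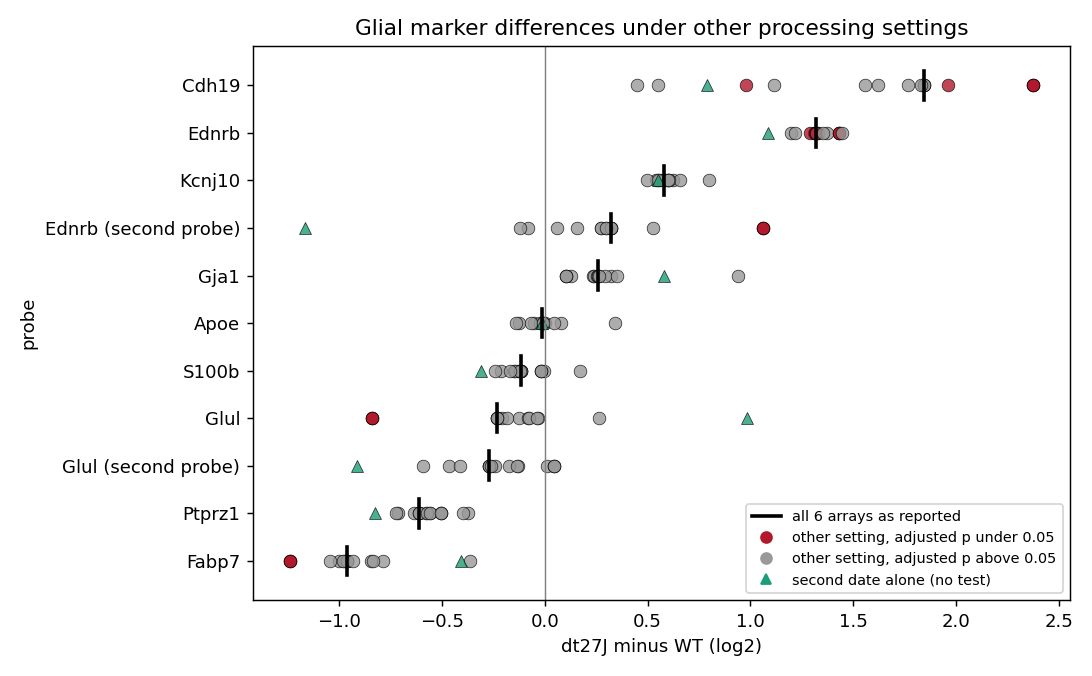
Difference of each tested glial marker probe, dt27J minus WT in log2 (horizontal axis), under each other setting or set of arrays (circles, red where adjusted p is under 0.05 and grey where it is not), within the second date (triangles) and as reported (bars). The brighter Ednrb probe keeps between 1.09 and 1.44 and the second one ranges between -1.16 and 1.06, while Cdh19 ranges between 0.45 and 2.37 and the brighter Glul probe between -0.84 and 0.99.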

How the data were processed

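Total RNA of whole dorsal root ganglia, 300 ng per sample, was labelled with Cy3 and hybridised to 1 single-colour Agilent array per sample, per the labels' protocols. The submitters' processing notes name Agilent Feature Extraction 10.5.1.1. The deposited scanner files hold for each spot a linear intensity, per the file headers, background-subtracted and detrended within the array and not normalized between arrays. A second table deposited by the authors has log2 values with every probe's 6-array median at 0. How it was normalized between arrays is not given in the sources used, and its column medians lie between -0.0041 and 0.0053.

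Levels were taken as described above. Control and outlier spots were left out and spots of a probe averaged. Of 41086 probes measured on every array, the 26248 well above background on all 3 arrays of a genotype were tested. Probes were named by unversioned accession through a RefSeq table (GRCm38.p6), which named 24844 of 41174 probes. limma 3.58.1 in R 4.3.3 fitted genotype and date (3 residual degrees of freedom, 3.74 from the prior); a second fit added their interaction. A gene in a list is its brightest tested probe, and the summed level adds their linear values; some genes stand in more than 1 list. The number of arrays limits the precision. The fit was run on simulated data with known changes, independent errors and the same date shift in both genotypes. That simulation does not cover genotype differences that vary between dates.

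The members, lists and naming rule were chosen with earlier results of these data known: all member probes, called genes of a list or its 3 smallest p values, the brightest marker of other cell types, and the 3 profiles most like each called member. Aqp4, Ednra, Kcnj16 and Slc1a3 were named after their values were seen, and 2 genes that the naming rule takes are not reported here. Alternatives were no date block, a replicate block, normexp (on the median spot signal, the files used here holding no mean), quantile normalization, the authors' values, other filters, each date alone and each array left out.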

Additional observations from a re-analysis of the deposited data

Results flagged for a closer look

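2 of the 11 tested marker probes were flagged because every array of the first date moved one way and the arrays of the second date the other. Neither passed the interaction test. For the second Ednrb probe the dt27J minus WT difference was 1.06 within the first date and -1.16 within the second, a change of -2.23 between dates (adjusted p = 0.0695, limma interaction). For the brighter Glul probe it was -0.84 and 0.99, a change of 1.82 (adjusted p = 0.0555). Such opposite moves occurred on 28.9% of all tested probes, and 0.831% of all tested probes passed the interaction test. The second date holds 1 array per genotype. The other probe of each gene did not show the same turn: the brighter Ednrb probe stood at 1.43 and 1.09, and the dimmer Glul probe at 0.05 and -0.91.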

How the results depend on the processing

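The count of called glial markers, 2 over all arrays, was 2 with quantile-normalized or the authors' values, and 2 after normexp with high local backgrounds replaced, where 1 was higher and 1 lower. It was 0 without the date block, with the replicate block (Ednrb and Cdh19 at an adjusted p of 0.111 each), without a filter on dim probes and with WT 3 as the sole WT array and no date block (limma; 4, 4, 5 and 1 genes at an unadjusted p under 0.05), 1 after normexp and among probes well above background on all 6 arrays, 4 within the first date, and 0 to 4 with 1 array left out. The count over all probes, 838, was 14 without the date block, 2 with the replicate block, 358 after normexp, 1434 with high local backgrounds replaced, 0 without the filter (8485 unadjusted), 6805 within the first date, 0 with WT 3 as the sole WT array (2587 unadjusted), and 0 to 6833 with 1 array left out: 0 without dt27J 1 or WT 2 (4481 and 5035 unadjusted), 1 without WT 1, 166 without dt27J 2, 6803 without dt27J 3 and 6833 without WT 3. Its balance of higher against lower was 344 and 494, against 614 and 561 with the authors' values, 503 and 430 after quantile normalization, 261 and 97 after normexp, and 35 and 131 without dt27J 2. Deviations of same-numbered arrays from their genotype means had r of 0.22, -0.15 and 0.06. Each deviation is fixed by the other arrays of its genotype, so these r values cannot show whether the numbers pair animals. Interaction calls among the marker probes, 0 over all arrays, were 2 after normexp, 2 with high local backgrounds replaced, 3 with the authors' values, 1 among probes above background on all arrays and 0 to 3 with 1 array left out; the brighter Glul probe was among them each time a call was made. Differences near 0 changed sign: Apoe stood at 0.077 after normexp and 0.34 with WT 3 as the sole WT array, the dimmer Glul probe at 0.011 after normexp and 0.046 within the first date, and with WT 3 as the sole WT array the brighter Glul probe stood at 0.26, S100b at 0.17 and the second Ednrb probe at -0.12. With 1 array left out Apoe lay between -0.069 and 0.045, the second Ednrb probe between -0.083 and 1.06 and the dimmer Glul probe between -0.59 and 0.046. With WT 3 as the sole WT array, 7 of 9 genes had a positive difference in place of 4. The cause of these shifts was not tested. The setting with WT 3 alone was chosen after the data were seen, and within the second date no test was possible.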
